A study of Mus musculus with 3 samples.

Results

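The regions described here were narrow stretches of H3K27me3 that also carried both measured forms of RNA polymerase II in F123 mouse embryonic stem cells (mESCs). They were selected on measured values: a region of the H3K27me3 list was taken when it was 10000 bp wide or less, shared at least 1 bp with a Pol2-S5p region and shared at least 1 bp with a Pol2-S7p region. A total of 4614 regions met this rule. They made up 35.8% of the 12887 focal H3K27me3 regions (10000 bp or less) and 26.6% of all 17342 H3K27me3 regions, and covered 16.0 Mb of mm10. They are called focal regions with both marks below. They were set beside 2044 focal regions with Pol2-S5p and no Pol2-S7p, 373 focal regions with Pol2-S7p and no Pol2-S5p, 5856 focal regions with neither mark, and 2906 H3K27me3 regions wider than 10000 bp with both polymerase marks, called wide regions with both.

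F123 is a male hybrid mESC line from a cross of S129/Jae and Cast mice, untreated, cultured with leukaemia inhibitory factor on inactivated fibroblast feeders and taken off the feeders for at least 2 passages before harvest. Chromatin immunoprecipitation sequencing (ChIP-seq) was done for H3K27me3, for polymerase phosphorylated at serine 5 of its C-terminal repeats (mouse monoclonal antibody CTD4H8) and for polymerase phosphorylated at serine 7 (a rat monoclonal antibody). Each mark had 1 library, so no value had a replicate, no test between conditions was possible, and intervals are exact Clopper-Pearson intervals at 95% that cover counting error alone. The files hold positions, widths and scores and no read counts, and the sequencing depth that the study lists was not used here, so no depth stands behind a region's value, and they are not split by allele, so 1 region can combine marks that lie on different alleles or in different cells.

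H3K27me3 is placed by Polycomb repressive complex 2, which is drawn to unmethylated CpG islands and holds developmental genes silent in stem cells. Polymerase paused near a start carries serine 5 phosphate and is found at many Polycomb-bound promoters, while serine 7 phosphate is found on polymerase at genes that make productive transcripts. Promoters with H3K27me3 and both polymerase forms are called Polycomb-Active (PRCa) in the study. Those with both polymerase forms and no H3K27me3 are called Active here.

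Reference sequence from the stretch covered by all 3 marks shows the range of base composition among these regions. The sequences are from the C57BL/6J reference of mm10, forward strand, in lower case with every CpG in capitals. The first 3 lie at gene starts and the last 2 far from any start.
Tex12, chr9:50561050-50561225: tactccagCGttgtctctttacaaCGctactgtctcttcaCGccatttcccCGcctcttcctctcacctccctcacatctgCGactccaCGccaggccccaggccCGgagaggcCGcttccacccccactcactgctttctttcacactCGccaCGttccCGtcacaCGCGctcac
Sox2, chr3:34650750-34651049: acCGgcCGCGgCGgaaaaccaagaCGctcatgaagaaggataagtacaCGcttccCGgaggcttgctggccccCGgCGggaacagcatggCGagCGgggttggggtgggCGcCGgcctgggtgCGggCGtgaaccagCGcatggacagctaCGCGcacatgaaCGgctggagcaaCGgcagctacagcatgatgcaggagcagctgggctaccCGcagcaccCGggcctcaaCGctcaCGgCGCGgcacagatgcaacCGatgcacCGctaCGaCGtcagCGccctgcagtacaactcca
Ccna1, chr3:55055650-55055949: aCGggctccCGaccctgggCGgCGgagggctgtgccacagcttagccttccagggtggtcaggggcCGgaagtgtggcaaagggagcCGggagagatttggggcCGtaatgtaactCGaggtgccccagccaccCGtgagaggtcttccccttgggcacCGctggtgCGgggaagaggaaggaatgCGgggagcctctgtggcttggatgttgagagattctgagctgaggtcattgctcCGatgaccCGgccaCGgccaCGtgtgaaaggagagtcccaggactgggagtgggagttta
Intergenic, chromosome 10, chr10:126511550-126511849: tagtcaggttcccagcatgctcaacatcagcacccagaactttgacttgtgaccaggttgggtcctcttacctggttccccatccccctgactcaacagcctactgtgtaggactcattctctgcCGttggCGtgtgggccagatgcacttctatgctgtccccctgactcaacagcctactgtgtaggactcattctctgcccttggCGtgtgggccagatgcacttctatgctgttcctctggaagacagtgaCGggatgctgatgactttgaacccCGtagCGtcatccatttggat
Intergenic, chromosome 8, chr8:79919950-79920249: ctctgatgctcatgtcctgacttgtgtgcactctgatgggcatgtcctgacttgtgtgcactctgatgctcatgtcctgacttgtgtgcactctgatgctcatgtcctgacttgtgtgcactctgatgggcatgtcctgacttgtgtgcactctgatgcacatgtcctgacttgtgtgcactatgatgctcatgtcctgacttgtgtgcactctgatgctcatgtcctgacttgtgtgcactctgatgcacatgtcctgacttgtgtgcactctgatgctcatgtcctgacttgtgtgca
The Tex12 stretch lies in an intron just after the start and has 13 CpG in 176 bases. The Sox2 stretch is coding sequence, with 31 CpG in 300 bases. The Ccna1 stretch lies upstream of the start and has 16 CpG. The intergenic stretch on chromosome 10 has 6 CpG and lies in a region whose middle is 139725 bp from the nearest gene start, and that on chromosome 8 has 0 CpG, is a short unit repeated in tandem with small changes and lies over 50000 bp from a start, the nearest being that of Hhip. Both intergenic stretches hold no base masked as a repeat in the reference.

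The focal regions with both marks had a median width of 2600 bp (interquartile range, 1600 to 5000 bp). At the upper limit, 26 of them were exactly 10000 bp wide, including those at Zfp775 and Repin1 (score 15.8), Fhdc1 (15.2) and Aff3 (12.96), and 14 regions with both marks were 10200 bp wide and so fell outside, including those at Artn (17.7) and Sipa1 (15.2). At the lower end 34 were 200 bp wide, the step of the grid on which regions were called. The smallest overlap with a polymerase mark was 200 bp, in 74 regions, and 5 focal regions with Pol2-S5p abutted a Pol2-S7p region without sharing a base. Each region also has a score from the peak-calling program, of no stated unit, which serves here to rank regions within 1 list. Its median was 10.9 in focal regions with both marks, 10.2 in those with Pol2-S5p alone, 8.35 with Pol2-S7p alone, 6.94 with neither and 7.74 in wide regions with both. The quartiles overlapped between all classes (7.93 to 15.0 in the regions with both marks).

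Both polymerase marks usually fell on the same bases of the region. In 4607 of the 4614 regions some base lay under all 3 marks, and in 7 the polymerase marks touched different parts. Pol2-S5p covered a median of 76.9% of the region and Pol2-S7p 76.5%. These values follow in part from the rule, which required an overlap with each mark, and are given as a description. The arrangement took contrasting forms. In 1338 regions (29.0%, 27.7 to 30.3%) the H3K27me3 region lay wholly inside both a Pol2-S5p and a Pol2-S7p region, and in 1321 (28.6%, 27.3 to 29.96%) it held both polymerase regions within its own ends. The remainder had at least 1 polymerase region that crossed an end or was nested differently from the other.

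The focal regions with both marks were also divided by whether the polymerase regions that touched them were over 10000 bp (wide) or not (narrow). In 2832 regions (61.4%) neither mark had a touching region over 10000 bp, and the median touching regions were 1400 bp for Pol2-S5p and 1400 bp for Pol2-S7p, narrower than the H3K27me3 regions over them (median 2600 bp). In 1188 regions (25.7%) both marks were wide, with medians of 47600 bp for Pol2-S5p and 44300 bp for Pol2-S7p. The H3K27me3 region lay inside both marks in 65.7% of regions with wide polymerase and in 14.6% of those with narrow polymerase. Regions with narrow polymerase lay a median of 342800 bp from the nearest wide H3K27me3 region, and those with wide polymerase 56800 bp. The share at promoters hardly differed between them (48.7%, 46.9 to 50.6%, with narrow polymerase and 49.1%, 46.2 to 52.0%, with wide polymerase).

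**Figure D1:**
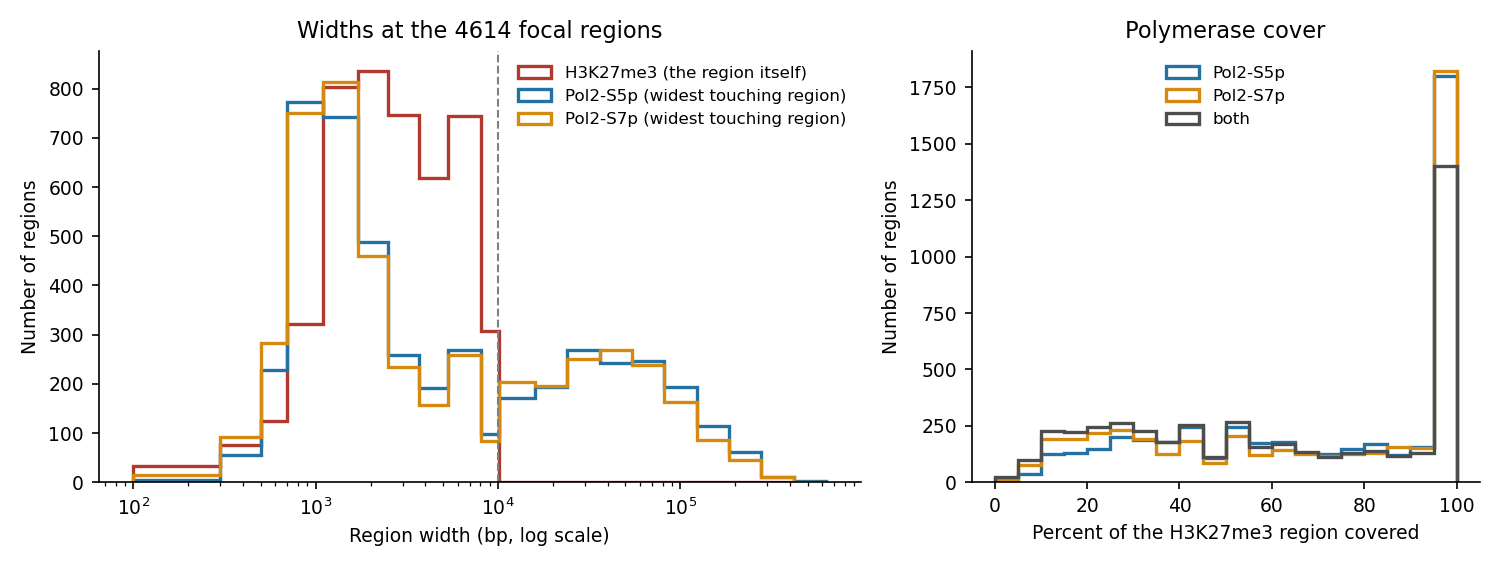
Left, number of the 4614 regions by width in bp (log scale, unequal bins) for the H3K27me3 region itself and for the widest Pol2-S5p and Pol2-S7p region touching it; the dashed line is the limit of 10000 bp. Right, percent of each H3K27me3 region covered by Pol2-S5p, by Pol2-S7p and by both. Touching polymerase regions lie on both sides of the limit, and the tallest bar on the right is at full cover.

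Promoters were the most frequent location. A region was placed at a promoter when it touched the 2 kb window centred on a gene start. Of the focal regions with both marks, 2273 (49.3%, 47.8 to 50.7%) touched such a window, against 34.6% (32.5 to 36.7%) of focal regions with Pol2-S5p alone, 6.17% (3.95 to 9.11%) with Pol2-S7p alone, 11.99% (11.2 to 12.8%) with neither, and 82.1% (80.7 to 83.5%) of wide regions with both. Over all H3K27me3 regions the share was 39.4%. A wide region has more room to reach a window, and the start of each gene was chosen by its Pol2-S5p cover, which favours regions with that mark. With the 5′ end of each gene, a choice blind to the marks, 51.2% of the focal regions with both marks were at a promoter. The other classes were not recounted with that start, so the comparison between classes rests on the chosen starts. By the chosen starts, a further 1234 (26.7%) lay in gene bodies and 1107 (23.99%) between genes. With every annotated start counted, 58.0% of the focal regions with both marks were at a promoter. Some of those placed in gene bodies or between genes thus touched the window of a start that was not chosen. A gene start lay inside 2082 of the regions (45.1%).

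The focal regions with both marks had the highest median CpG content of the 5 classes. The ratio of observed to expected CpG, which is near 1 in CpG islands and low in most of the genome, had a median of 0.424 (interquartile range, 0.293 to 0.573) against 0.323 with Pol2-S5p alone, 0.205 with Pol2-S7p alone, 0.246 with neither and 0.262 in wide regions with both. A ratio of at least 0.6 with a GC content of at least 50% over the whole region was found in 937 regions with both marks (20.3%, 19.2 to 21.5%), against 3.77%, 0.268%, 0.598% and 0.0688% of those classes in the same order. A ratio over a whole region depends on its width. Within the central 300 bp the medians were 0.360 in focal regions with both marks, 0.296 with Pol2-S5p alone, 0.179 with Pol2-S7p alone, 0.233 with neither and 0.203 in wide regions with both, where the regions with neither mark and the wide regions changed places. Regions of 1 library are not replicates, so no test was made.

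**Figure D2:**
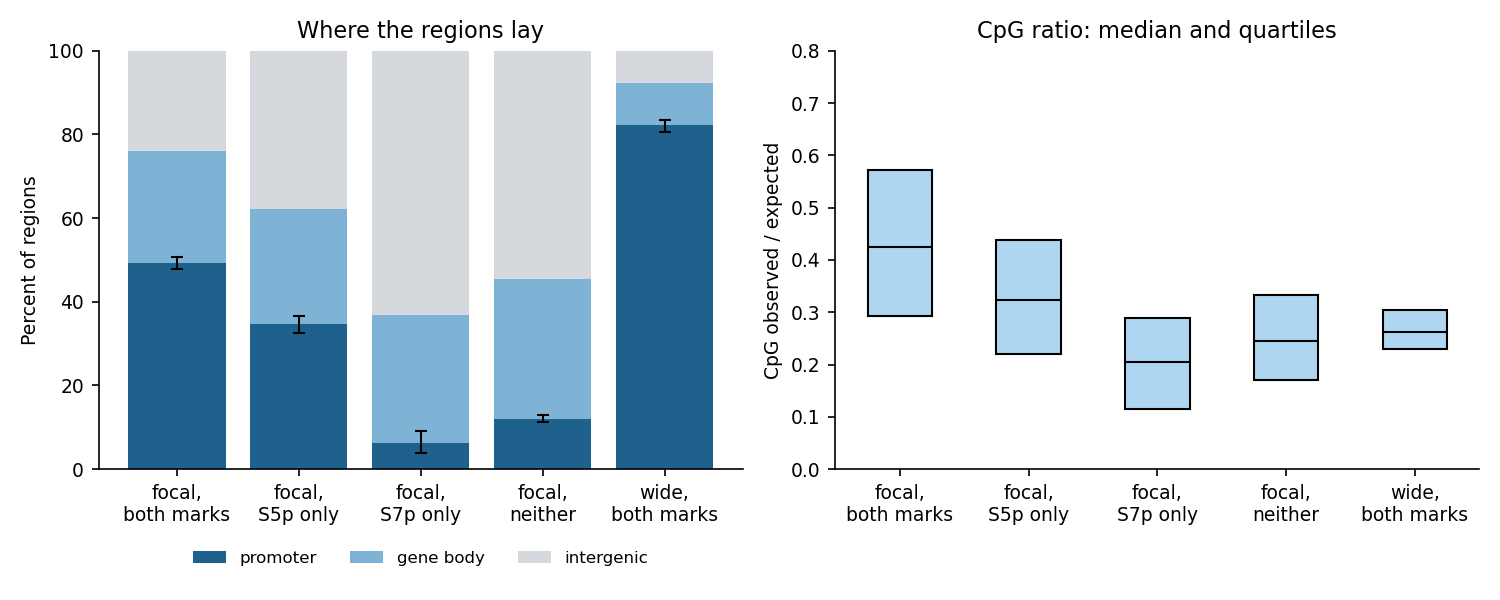
Left, percent of regions at promoters, in gene bodies and between genes for 5 classes of H3K27me3 region, with 95% Clopper-Pearson intervals on the promoter share. Right, median (line) and quartiles (box) of the CpG ratio over the whole region. Focal regions with both marks have 49.3% at promoters and the highest median ratio, 0.424.

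Composition split the regions by place. The 2273 regions at promoters had a median CpG ratio of 0.518 and 12.2% repeat-masked bases, and 21 (0.924%) were at least 50% repeat. Those in gene bodies had a median ratio of 0.345, and 274 (22.2%) were at least 50% repeat. Those between genes had a median ratio of 0.325 and 84.2% repeat-masked bases, and 674 (60.9%) were at least 50% repeat. In all, 969 of the 4614 regions (21%) were at least 50% repeat, against 26.3% of focal regions with Pol2-S5p alone, 60.9% with Pol2-S7p alone, 31.4% with neither and 3.03% of wide regions with both.

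A subset had the same ends in all 3 lists. In 354 regions (7.67%) a Pol2-S5p and a Pol2-S7p region each began and ended within 200 bp of the H3K27me3 region. These had a median width of 1200 bp, 19.2% (15.2 to 23.7%) were at promoters and 44.4% were at least 50% repeat. The other 4260 regions had a median width of 2800 bp, 51.8% (50.2 to 53.3%) at promoters and 19.06% at least 50% repeat. The part of reads from repeated sequence in these calls was not tested, and no input library was used here.

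**Figure D3:**
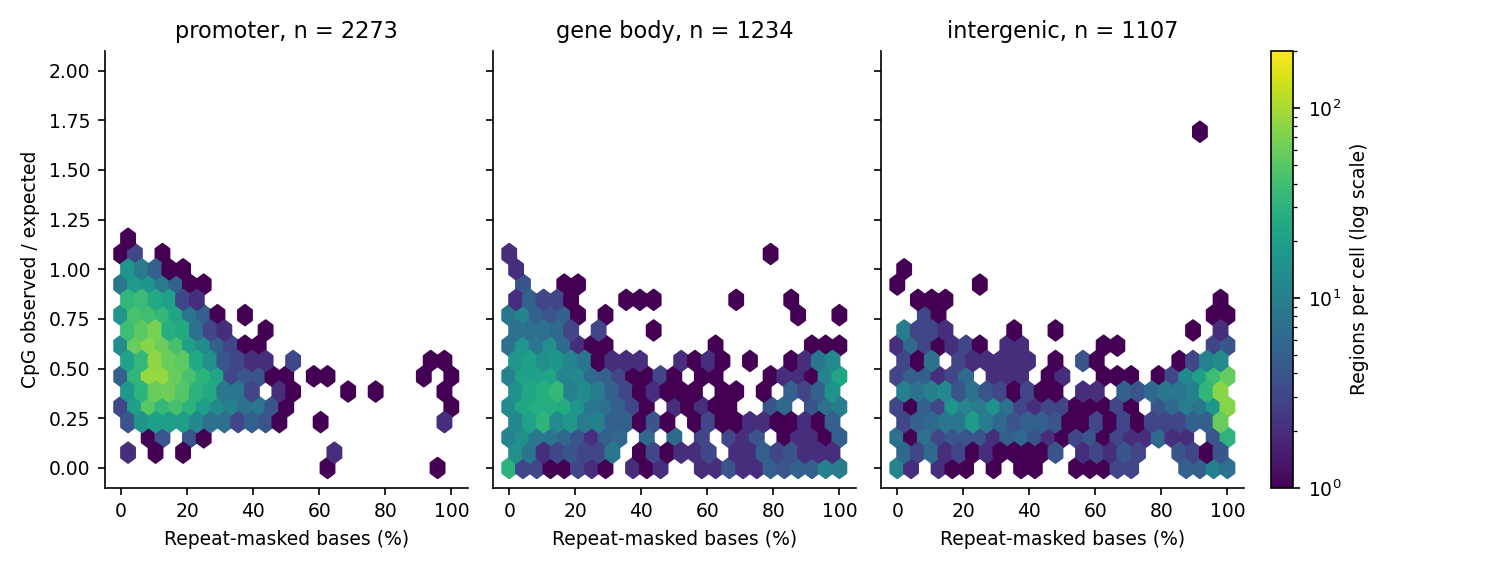
CpG ratio (vertical axis) against percent of repeat-masked bases (horizontal axis) for the focal regions with both marks at promoters, in gene bodies and between genes; colour gives the number of regions per cell on a log scale. Promoter regions gather at low repeat content, and many intergenic regions sit near 100% repeat.

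The 10 regions with the highest H3K27me3 scores were mostly not at promoters. The highest of all (192) was a 600 bp region in an exon of Cers5, a ceramide synthase gene, at chr15:99735600-99736199, which lay inside a Pol2-S5p region of 131600 bp and a Pol2-S7p region of 172400 bp. Of the 10 highest, 5 were intergenic, 4 were in gene bodies and 1 was at a promoter, that of Nkx2-4 (score 73.1), a homeobox gene of the forebrain. The region at chr9:121929400-121931999 (82.6) and that at chr17:13550600-13553199 (76.4) had the same ends in all 3 lists, CpG ratios of 0.00960 and 0.00522, and 97.0% and 96.7% repeat-masked bases. The region at chr4:80002400-80005199 (94.7) and that of Nkx2-4 also had the same ends in all 3 lists, with CpG ratios of 0.530 and 0.993, and 11.3% and 2.95% repeat-masked bases. Across all regions with both marks, divided into 4 groups of like size by score, the median CpG ratio was 0.317 in the lowest group, 0.422 and 0.444 in the middle groups and 0.482 in the highest. The promoter share was 38.7% (35.9 to 41.6%) in the lowest group and 53.6% (50.7 to 56.5%) in the highest.

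Autosomes had between 1.33 and 2.13 focal regions with both marks per Mb. The X chromosome had 183 (1.07 per Mb), which was 21.1% (18.4 to 23.9%) of its focal H3K27me3 regions, against 31.2 to 41.3% on autosomes. Per 100 protein-coding genes X had 19.3, within the autosomal range of 13.5 to 33.6. The median score on X was 7.17, against 9.83 to 12.7 on autosomes. The line is male, and the part of X copy number in these values was not tested. The Y chromosome had 213 (2.32 per Mb), of which 202 were at least 50% repeat and 1.41% were at a promoter, with a median score of 4.21. The Y regions thus differed from the rest in both composition and place. The regions were scattered: the nearest other one was a median of 129400 bp away, 337 (7.30%) had another within 10 kb, and 319 (6.91%) had a wide H3K27me3 region within 10 kb. Wide regions with both lay a median of 40400 bp from the next wide region, and the focal regions with both marks 170200 bp.

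A focal region with both marks lay at the promoter of 2306 of 21938 protein-coding genes (10.5%) and of 547 of 13374 long noncoding RNA genes (4.09%). For comparison, 18.8% of protein-coding genes had a wide region with both at the promoter and 35.9% were Active. In 2767 of these 2853 genes all 3 marks were in the window itself. Of the 2273 regions at promoters, 482 (21.2%) reached genes on both strands.

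The profile around these starts is a description, since the rule placed a narrow H3K27me3 region with both polymerase marks there, the limit on width bounds its reach, and each start was chosen by its Pol2-S5p cover. Over 1676 protein-coding genes with a window of their own and a focal region with both marks, H3K27me3 covered 94.7% of bases 300 bp after the start, 44.3% at 1900 bp and 9.13% at 4900 bp. At 3339 genes with a wide region it still covered 79.2% at 4900 bp. Pol2-S5p covered 97.3% at 100 bp and 37.0% at 1900 bp at the focal genes, against 64.0% at 1900 bp at the wide genes and 69.4% at 5569 Active genes. Pol2-S7p covered 33.9% at 1900 bp at the focal genes, 46.8% at the wide genes and 74.3% at Active genes. The middle of the region lay a median of 199 bp after the start for H3K27me3, 116 bp for narrow Pol2-S5p and 95 bp for narrow Pol2-S7p regions.

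**Figure D4:**
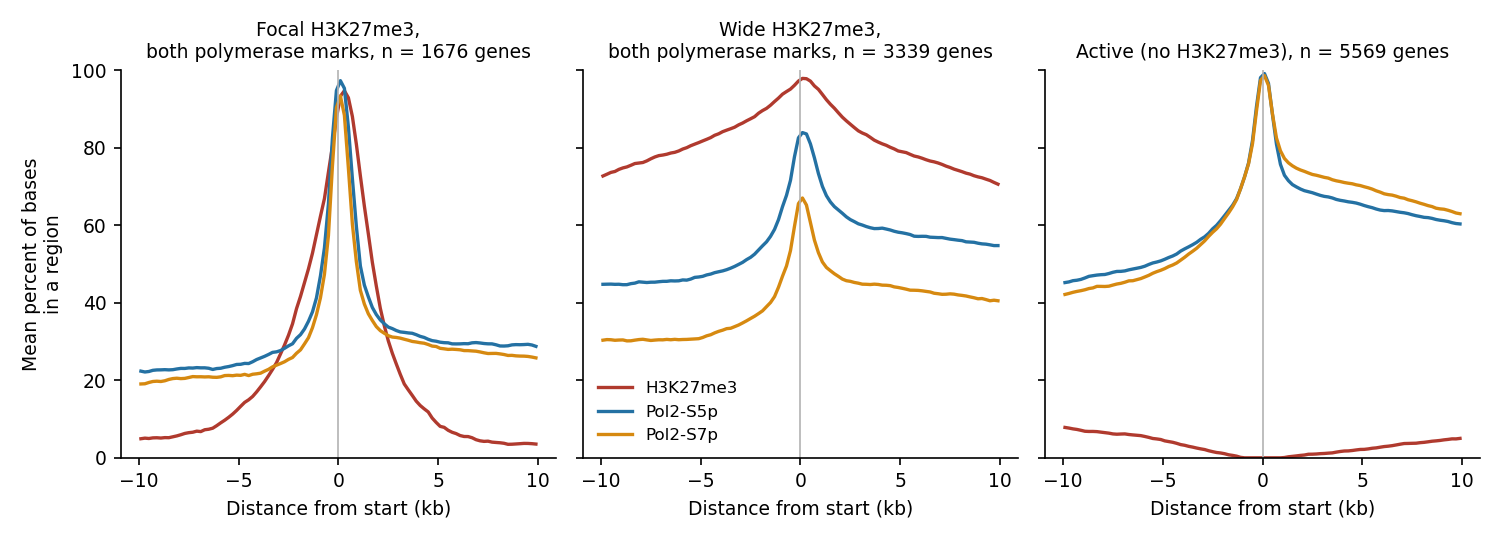
Mean percent of bases inside a region, in bins of 200 bp from 10 kb before to 10 kb after the start, for protein-coding genes with a focal region with both marks (n = 1676), a wide region with both (n = 3339) and Active genes (n = 5569). At the focal genes all 3 marks form a sharp summit at the start; H3K27me3 falls to 3.55% at 9900 bp.

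Past the start, called polymerase regions covered little of the body of the median gene with a focal region. In protein-coding genes of at least 10 kb, from 2000 bp after the start to the gene end, Pol2-S7p covered a median of 0.662% of the gene body at 1304 genes with a focal region with both marks, 11.01% at 2043 genes with a wide region and 100% at 4338 Active genes. Pol2-S5p covered 1.95%, 64.7% and 87.9% in the same order. Without the limit on length, the genes with a focal region and a window of their own had a median length of 42306 bp, against 14173 bp with a wide region and 23733 bp in Active genes. Gene length and cover differed with the width of the polymerase regions: the 1049 genes with narrow polymerase had a median length of 65065 bp, and the 416 with wide polymerase 15061 bp. Median Pol2-S7p cover was 0% in the 883 of those with narrow polymerase that reached 10 kb and 100% in the 256 with wide polymerase. A wide polymerase region by itself covers more of a gene body, so these values are a description.

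The 10 longest genes with a focal region at the start were Ptprd, Macrod2, Csmd1, Nrxn3, Magi2, Gm37240, Naaladl2, Tenm2, Ccser1 and Nkain2. Ptprd, a receptor phosphatase of synapses spanning 2270724 bp, had an H3K27me3 region of 5600 bp (score 10.9), a Pol2-S5p region of 1600 bp (12.01) and a Pol2-S7p region of 1200 bp (9.85). Csmd1, a complement regulator of the brain of 1643050 bp, had 2400 bp (36.7) of H3K27me3, 1000 bp (17.8) of Pol2-S5p and 1200 bp (6.16) of Pol2-S7p. Nrxn3, which encodes a presynaptic neurexin of 1612060 bp gene length, had 5400, 1800 and 800 bp for the 3 marks, and Tenm2, a teneurin gene of 1229309 bp, 3800, 1600 and 1000 bp. In each of the 10 but Nkain2, where the Pol2-S7p region crossed an end, both polymerase regions lay within the ends of the H3K27me3 region.

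**Figure D5:**
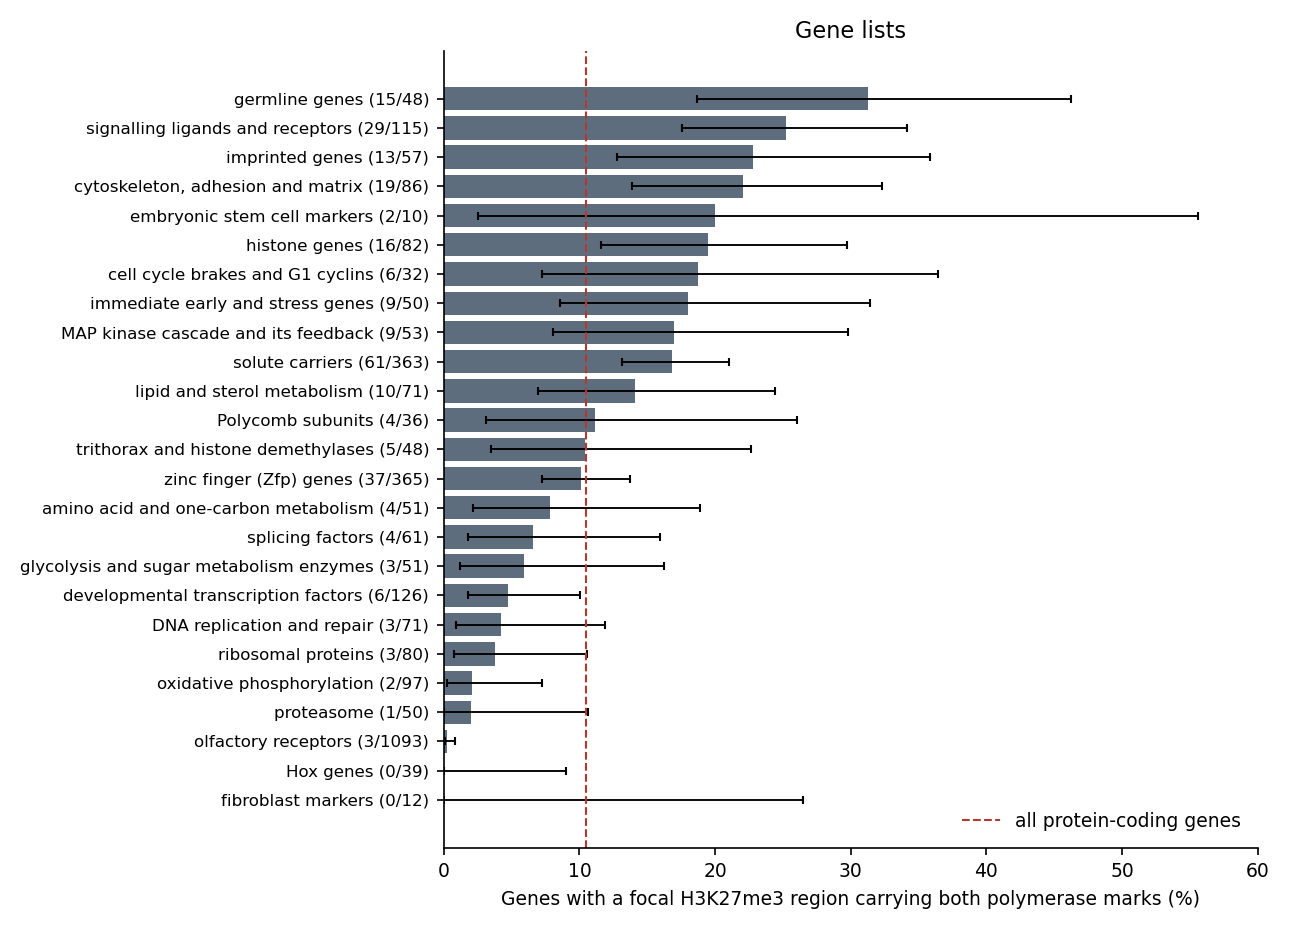
Percent of genes in each of 25 lists with a focal H3K27me3 region carrying both polymerase marks at the promoter, with counts in brackets and 95% Clopper-Pearson intervals; the dashed line is the share of all protein-coding genes, 10.5%. Germline, signalling, imprinted and cytoskeleton lists are at the top, and Hox genes and fibroblast markers have none.

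Among signalling ligands and receptors 29 of 115 genes (25.2%, 17.6 to 34.2%) had a focal region with both marks, beside 10.5% of protein-coding genes. A wide region was at 57 more (49.6%), beside 18.8%. Among genes with any H3K27me3 at the promoter, the focal share was 29.9% in this list and 27.8% in all protein-coding genes. Parted after the values were seen, 21 of 56 receptors (37.5%, 24.9 to 51.5%) and 8 of 59 ligands (13.6%, 6.04 to 24.98%) had a focal region. A wide region was at 20 receptors (35.7%) and 37 ligands (62.7%). Among those with any H3K27me3, the focal shares were 48.8% of receptors and 14.8% of ligands. At 11 of the 21 receptors the H3K27me3 region held both polymerase regions within its ends, beside 36.8% of all 2306 protein-coding genes with such a region. Tgfbr1, the type I receptor for TGF-β, had 6800 bp of H3K27me3 (score 6.98) with 1200 bp of Pol2-S5p (52.4) and 1000 bp of Pol2-S7p (60.8). Tgfbr2, its type II partner, had 4000 bp (15.7), 1000 bp (22.9) and 1200 bp (16.5). Acvr1, a BMP and activin type I receptor, had 5600 bp (9.43), 1200 bp (22.9) and 1200 bp (25.6).

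Receptor tyrosine kinases and Wnt receptors were of mixed form. At Met, Egfr, Insr, Lrp6, Fzd1, Fzd3 and Fzd4 the region held both polymerase regions, and at Epha7, Igf1r, Lrp5, Fzd5, Fzd6 and Fzd7 it did not. Met, the receptor for hepatocyte growth factor, had 8000 bp of H3K27me3 with 1600 bp of Pol2-S5p and 800 bp of Pol2-S7p. Egfr, the EGF receptor, had 4200, 1600 and 1400 bp, and Insr, the insulin receptor, 4800, 1400 and 800 bp. The Wnt co-receptor Lrp6 had 9800 bp with 1200 bp of each polymerase mark, and the Frizzled receptor Fzd3 9800, 1200 and 1000 bp. The Fzd7 region of 2400 bp lay inside 69600 bp of Pol2-S5p and 92000 bp of Pol2-S7p, and that of Acvr2b, 9800 bp, inside 72800 and 70400 bp. Epha7, an ephrin receptor, had 2800 bp inside 3200 bp of each mark, and Igf1r, the IGF receptor, 8000 bp with 3600 and 3400 bp that crossed an end. The regions of Bmpr1a, Bmpr2 and Notch4 also did not hold both polymerase regions. Of the 21 receptors, 16 had narrow polymerase on both marks, beside 59.7% of all such protein-coding genes, and 4 had wide polymerase on both.

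Among ligands the highest scores were at Dhh, Bmp6 and Bmp2. Dhh, a hedgehog ligand of the testis and peripheral nerve, had a 9000 bp region (31.6) with 24200 bp of Pol2-S5p and 93600 bp of Pol2-S7p. Bmp6 had 4600 bp (28.8) with 9400 and 1800 bp, and Bmp2 4800 bp (26.5) with 3000 and 3200 bp. These are secreted BMP ligands. Fzd6, a Frizzled receptor, had the third highest score in the list, 28.7, on 1200 bp, with 1200 bp of Pol2-S5p and 800 bp of Pol2-S7p.

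Germline genes had the highest share of the 25 lists, 15 of 48 (31.3%, 18.7 to 46.3%) beside 10.5% of protein-coding genes. A wide region was at 15 more (31.3%), beside 18.8%. Among genes with any H3K27me3 at the promoter, the focal share was 40.5% in this list and 27.8% in all protein-coding genes. Polymerase was narrow on both marks at 12 of the 15 genes with a focal region, beside 59.7% of all protein-coding genes with such a region. Tex12 and Sycp1, which encode parts of the synaptonemal complex of meiosis, had the highest scores of the list, 38.1 and 35.9. Tex12 had 1200 bp of H3K27me3, 1200 bp of Pol2-S5p and 400 bp of Pol2-S7p, with the CpG-rich stretch printed above. Sycp1 had 1600, 800 and 1400 bp. Taf7l, a germ cell TFIID subunit on the X chromosome, had 1800, 2200 and 1400 bp. Dazl, an RNA-binding protein of germ cells, had 7000, 1600 and 1200 bp, and Dmc1, the meiotic recombinase, 800, 1200 and 1200 bp.

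Imprinted genes had focal regions with both marks at 13 of 57 (22.8%, 12.7 to 35.8%), beside 10.5% of protein-coding genes and 4.09% of long noncoding RNA genes, both kinds being in the list. When each region had to score above the median of its own list, the share was 5.26%, beside 4.60% of protein-coding genes. Their list was built for parent-of-origin expression, and the files do not show which allele carried which mark. Nespas, an antisense transcript of the Gnas locus, had the highest score (38.1) on 5000 bp at chr2:174296200-174301199, of which 4800 bp lay under all 3 marks. This region lay upstream of the Nespas start, at 174295436, and reached its window without holding the start. The middle 300 bases under all 3 marks were coding sequence of Gnas. Nnat, which encodes a brain proteolipid, and Blcap shared 1 region of 2800 bp (16.1), wholly inside 32200 bp of Pol2-S5p and 27200 bp of Pol2-S7p. Magel2, a gene of the Prader-Willi interval, had 7200 bp (23.3) with 4200 and 3600 bp. Airn, the antisense RNA of the Igf2r locus, had 3000 bp (12.9) with 28800 and 30400 bp.

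Cytoskeleton, adhesion and matrix genes had 19 of 86 (22.1%, 13.9 to 32.3%) beside 10.5% of protein-coding genes. A wide region was at 30 more (34.9%), beside 18.8%. The focal H3K27me3 region lay inside both polymerase marks at 11 of 19 genes, against 22.6% of all 2306 protein-coding genes with such a region. Vim, the mesenchymal intermediate filament, had 1000 bp (22.0) inside 3800 bp of Pol2-S5p and 11200 bp of Pol2-S7p. Col4a1 and Col4a2, the basement membrane collagens, shared a region of 9800 bp (17.2) inside 223400 and 259200 bp. Cnn1, smooth muscle calponin, had 2400 bp (18.96) inside 65400 and 65200 bp, and Lama5, a laminin chain, 9000 bp (9.12) inside 77000 and 138200 bp. At Cdh2, N-cadherin, the region of 3400 bp (24.3) did not lie inside both marks, with 4000 bp of Pol2-S5p and 3000 bp of Pol2-S7p. Feeder fibroblasts express many genes of this list. Of 12 fibroblast markers 0 had a focal region with both marks, which with 12 genes leaves a share of up to 26.5%. Of the 12, 4 had a wide region with both polymerase marks, 2 had other H3K27me3 and 1 was Active, and the part of leftover feeder chromatin was not tested.

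Histone genes stood out for the polymerase over them. Of 82 genes 16 (19.5%, 11.6 to 29.7%) had a focal region, beside 10.5% of protein-coding genes. The 16 genes shared 9 distinct regions, so they are not independent and the interval is too narrow. At 13 of the 16 the region lay inside both polymerase marks, beside 22.6% of all protein-coding genes with such a region. Their median highest touching scores were 69.0 for Pol2-S5p and 108 for Pol2-S7p, against 16.8 and 16.0 over all protein-coding genes with such a region. Hist1h1b, a linker histone, had 1000 bp (15.2) with 1800 bp of Pol2-S5p scored 122.7 and 2000 bp of Pol2-S7p scored 159. Hist1h3i had 600 bp (13.9) with scores of 53.2 and 142, and Hist1h2ad 3400 bp (10.6) with 94.0 and 113. Replication-dependent histone genes are near-identical copies, so reads can be shared among them and these values are uncertain.

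Stress and immediate early genes had 9 of 50 (18%, 8.58 to 31.4%), an interval that holds the 10.5% of all protein-coding genes. A wide region was at 21 more (42%), beside 18.8%. Hspa1b, an inducible heat shock protein, had the highest score of any listed gene, 63.7 on 3600 bp, with 2400 bp of Pol2-S5p (35.4) and 2600 bp of Pol2-S7p (24.7). It has a near-identical neighbour, Hspa1a, so its reads are uncertain too. Jun, an AP-1 subunit, had 2000 bp (24.5) inside 5400 bp of each polymerase mark. Nr4a2, an orphan nuclear receptor, had 9200 bp (18.9) holding 3000 and 2800 bp.

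Of 10 embryonic stem cell markers, 8 were Active, beside 35.9% of all protein-coding genes. A focal region with both marks was at 2 (20%, 2.52 to 55.6%), an interval that holds the 10.5% of all protein-coding genes. These were Sox2 (1000 bp, 15.0), inside 52000 bp of Pol2-S5p and 35800 bp of Pol2-S7p, and Klf4 (2600 bp, 13.99), inside 19000 and 19200 bp. In both the H3K27me3 region was a small patch at the gene within wide polymerase. Cell cycle genes had 6 of 32 (18.8%, 7.21 to 36.4%), and the 10.5% of all protein-coding genes lay within that interval. Ccna1, a cyclin of the testis, had 3600 bp (17.4), 3600 and 4200 bp, with the region inside both marks. Ccnd1, the G1 cyclin D1, had 7200 bp (9.52) overlapping 29000 bp of each polymerase mark, and Cdk6, its partner kinase, 4200 bp (13.4) with 3800 bp of each.

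Genes of the MAP kinase cascade had 9 of 53 (17.0%, 8.07 to 29.8%), and here too the interval holds 10.5%. At 5 of the 9 the region held both polymerase regions, beside 36.8% of all protein-coding genes with such a region, as at Dusp14 and Dusp10, phosphatases that switch MAP kinases off: Dusp14 had 2400 bp (15.5) with 600 bp of each polymerase mark, scored 52.2 for Pol2-S5p and 68.8 for Pol2-S7p, and Dusp10 6600 bp (11.5) with 1400 bp of each. Map3k5, a stress kinase, had 7200 bp (11.5) with 1400 bp of each.

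Developmental transcription factors rarely had a focal region with both marks. Of 126 genes, 6 (4.76%, 1.77 to 10.1%) had one, beside 10.5% of all protein-coding genes. A wide one was at 71 (56.3%), beside 18.8%. Of 39 Hox genes 0 had a focal and 38 a wide region. When each region had to score above the median of its own list, the focal share of the 126 genes was 3.97%, close to the 4.60% of all protein-coding genes. The limit on width was part of the rule. A further 44 of the 126 (34.9%, beside 8.41% of all protein-coding genes) had H3K27me3 in neither of these classes. The 6 had narrow polymerase on both marks. Irx5, an Iroquois homeobox gene, had 6400 bp (34.2) with 5200 and 2800 bp, Sox11, a neural factor, 3600 bp (21.7) with 2200 bp of each, and Sox17, an endoderm factor, 8800 bp (19.9) with 7200 and 6800 bp. Among chromatin regulators, 4 of 36 Polycomb genes (11.1%) had a focal region, close to the 10.5% of all protein-coding genes, among them Pcgf5 (5400 bp, 19.7) and Yaf2 (7800 bp, 10.1), each with polymerase regions of 1600 to 2000 bp inside, both being subunits of variant PRC1.

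Of the regions in gene bodies, 675 of 1234 (54.7%) touched an exon. One of them, in Gnas at chr2:174327000-174331199, covered 4200 bp with a score of 51.4 and a CpG ratio of 0.820, and had the same ends within 200 bp in all 3 lists, with scores of 36.2 for Pol2-S5p and 25.5 for Pol2-S7p. Exons made up 66.3% of its bases. Its place in a gene body follows from the chosen starts, the nearest being that of Gm20721, 17612 bp from its middle. Whether it lies at another start of Gnas was not tested. Gnas encodes the stimulatory G protein alpha subunit and is imprinted in some tissues. A region of 600 bp in an intron of Zc3h7a scored 73.0 at a CpG ratio of 1.02, inside 10400 bp of Pol2-S5p.

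A few wide Pol2-S7p regions held several focal regions with both marks. Of 4431 Pol2-S7p regions that touched one, 4222 (95.3%) touched 1 and 12 touched 4 or more. A Pol2-S7p region of 366400 bp at chr14:55536000-55902399 held 6, each at a promoter, including those of Pck2, a mitochondrial gluconeogenic enzyme, Rec8, the meiotic cohesin, and Nfatc4. It spanned 32 protein-coding genes. Another, at chr7:98120400-98195599, held 6 near Omp and Myo7a, of which 2 were at promoters, and that over Col4a1 and Col4a2 at chr8:11195000-11454199 held 4.

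The promoters of genes with a focal region had the highest median GC content and CpG ratio of the sets compared here. Promoters with H3K27me3 in neither the focal nor the wide class were not measured. In the stretch from 250 bases before to 50 after the start, the median CpG ratio was 0.764 at 2306 such genes, 0.547 at 4131 genes with a wide region, 0.703 at 7877 Active genes and 0.457 over all 21938 protein-coding genes, and the median GC content was 65.0%, 59.3%, 57.3% and 54.7%. Of 10 motifs searched on both strands, the SP/KLF GC box, GGGCGG, was in 67.1% (65.2 to 69.0%) of promoters with a focal region, 50.1% with a wide region, 50.2% of Active promoters and 39.5% of all. The ETS motif, CCGGAAG, was in 8.24% (7.15 to 9.44%), 7.02%, 18.8% and 9.68%. GGGCGG can overlap the E2F letters TTCCCGCC in part. Median GC content was also highest at the promoters with a focal region, its part in the motif shares was not tested, and a match is a description of letters and not of binding.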

How the data were processed

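ChIP-seq was done for H3K27me3, Pol2-S5p and Pol2-S7p in F123 mESCs, 1 library each. The authors mapped 75 bp single-end reads to mm10 with the known differences between the parental strains masked (Bowtie2 2.3.4.3, per the submitters' processing notes and the study's methods) and called regions with BCP, run for histone marks. The deposited files give for each region a position, a width in bp, equal to end minus start, and a score, whose unit is not given in the sources used here. Whether an input library entered the calling is not given either. The files hold no counts, and the sequencing depth listed by the study was not used here, so no precision from depth is given.

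Overlap counted from 1 bp. Genes came from GENCODE M21 (21938 protein-coding and 13374 long noncoding, 21 chromosomes), and sequence and repeat masking from the RefSeq copy of GRCm38. For each gene the start with the longest Pol2-S5p cover in its 2 kb window was used, then Pol2-S7p cover, the longest transcript and the first identifier. Genes whose window overlapped that of another (6750) were left out of profiles and body cover. The members and the 25 gene lists were chosen with earlier results of these data known, and the receptor and ligand lists after values were seen. Genes are not replicates, so lists are described by counts. Named by rule, of which the text gives a selection, were up to 4 genes per list by H3K27me3 score, the 10 highest-scoring regions, 5 Pol2-S7p regions holding the most, the regions at the width limit, Mapk13, Apoe, Mest and the 10 longest genes. Other named genes were chosen after their values were seen. Printed sequences are the middle 300 bases under all 3 marks without annotated untranslated bases, from at least 100 bases up, a selection of those the rule gave; 1 other sequence is not reported here. Alternatives covered the width limit, the overlap, score, chromosomes, repeats, the promoter window and the start. Functions were tested on simulated data. Python 3.11.15, NumPy 2.4.6, SciPy 1.17.1 and Matplotlib 3.10.9 were used.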

Additional observations from a re-analysis of the deposited data

How the results depend on the processing

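The number of regions was 3500 with a width limit of 5000 bp and 5511 with 20000 bp, and 4614 with at least 200 bp of overlap. It moved by more than 1.5 times in 2 settings: 2786 regions remained when each mark had to cover at least 50% of the region and 1677 when each region had to score above the median of its own list. Genes with such a region then numbered 1188 and 1010, against 2306.

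The promoter share (49.3%) was 45.7% and 52.8% with the width limits of 5000 and 20000 bp, 41.2% with at least 50% cover, 57.4% with scores above the median, 51.7% on autosomes, 61.8% without regions at least 50% repeat, 51.5% with a window of 5 kb, 51.2% with the gene 5′ end and 58.0% with every annotated start. The median CpG ratio (0.424) was 0.449 and 0.389 with the width limits, 0.416 with at least 50% cover, 0.483 with scores above the median, 0.434 on autosomes, 0.459 without repeats and 0.360 in the central 300 bp. The median cover by both polymerase marks (60%) was 66.7% and 55.2% with the width limits, 95.3% with at least 50% cover, which that setting fixes in part, and 50.0% with scores above the median. The cause of the other shifts was not tested.

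Gene lists were recounted under 2 alternatives alone, the gene 5′ end and scores above the median. Of 25 gene lists, 2 changed side of the share of all protein-coding genes, both with scores above the median. There 4.60% of all protein-coding genes had such a region, lipid and sterol metabolism had 4.23% and zinc finger genes 5.21%. Germline genes then had 12.5%, signalling genes 15.7%, cytoskeleton genes 8.14% and imprinted genes 5.26%. No paired analysis was possible because each mark had 1 library and no result comes from a test.

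Limits: with 1 library per mark, differences between libraries and marks cannot be told apart, and the width limit and the peak finder's thresholds set what counts as focal. Region lists carry no signal strength beyond the score, no alleles and no cell-to-cell information.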

Other observations

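Among the lists of transport and metabolism, only solute carriers had an interval wholly above the 10.5% of all protein-coding genes. Solute carriers had a focal region with both marks at 61 of 363 genes (16.8%, 13.1 to 21.1%), led by Slc26a8, an anion transporter of sperm (1200 bp, score 29.3), Slc47a2, a cation extruder (1400 bp, 28.9), and Slc30a10, a manganese exporter (4400 bp, 27.4). A wide region was at 89 more solute carriers (24.5%), beside 18.8% of all protein-coding genes. Lipid and sterol genes had 10 of 71 (14.1%, 6.97 to 24.4%), led by Elovl4, which elongates very long fatty acids (3600 bp, 26.8), and Fabp5, a fatty acid binding protein (5200 bp, 13.5). Glycolysis and sugar metabolism enzymes had 3 of 51 (5.88%, 1.23 to 16.2%). Amino acid and one-carbon metabolism genes had 4 of 51 (7.84%, 2.18 to 18.9%). The intervals of the lipid, glycolysis and amino acid lists all hold 10.5%.

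Housekeeping lists were mostly Active, beside 35.9% of all protein-coding genes. Few of their genes had such a region, beside 10.5%: ribosomal proteins 3 of 80, oxidative phosphorylation 2 of 97 and the proteasome 1 of 50. Splicing factors had 4 of 61 and DNA replication and repair 3 of 71. Of these lists only oxidative phosphorylation had an interval (0.251 to 7.25%) wholly below 10.5%. Trithorax and histone demethylase genes had 5 of 48 and zinc finger genes 37 of 365 (10.1%), near the 10.5% of all protein-coding genes. Zfp541, a meiotic factor, had the highest zinc finger score (37.9, 2000 bp). Olfactory receptors had 3 of 1093.

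Mapk13, Apoe and Mest, read because the study names them or for their imprinting, had no focal region with both marks. Mapk13 and Mest had wide regions of 17400 and 28600 bp with both polymerase marks, and the Apoe window used here held no H3K27me3 region (Active) and was touched by a Pol2-S5p region of 242800 bp and a Pol2-S7p region of 279800 bp.

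Position along the gene was read only for focal regions with both marks placed in gene bodies, so those at promoters were left out. Of these, 1099 touched coding genes 10 kb or longer, which were cut into 4 parts of equal length. Each region was counted in the part that held its middle. A middle beyond an end of the gene was counted in the nearest part, which can raise the first and last shares. The first part held 34.6% (31.8 to 37.5%) of the 1099, the middle parts 17.8% and 19.02% and the last 28.6% (25.9 to 31.3%).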
